A study of Mus musculus with 2 samples.

Results

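Splenic donor T cells with a high share of mitochondrial RNA were examined in both scRNA-seq libraries of the series, 1 from day +7 and 1 from day +14 after allogeneic hematopoietic cell transplantation. These are the barcodes with 500 to 7500 detected genes, at least 1 unique molecular identifier (UMI) on the T cell genes Cd3d, Cd3e, Cd3g, Trac, Trbc1 or Trbc2, and more than 5% but at most 15% of their UMIs on the mitochondrially encoded (mt-) genes. The rule was met by 474 barcodes, 132 at day +7 and 342 at day +14, of 14782 T barcodes with up to 15% mt- UMIs and of 15398 barcodes in all. They were selected on the measured mt- share itself, so that share is a description of them, and they are one end of a range and not a cell type found by clustering. Each was set beside a T barcode of the same library with 5% mt- UMIs or less and like total UMIs, called its matched barcode.

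In both groups, C57BL/6 (H-2b) donors provided T cell-depleted bone marrow and 200000 naive splenic T cells per the labels, and the recipients were lethally irradiated BALB/c (H-2d) mice. Recipient spleens were sorted for CD45+, H2kb+, H2kd- and TCRβ+ cells, which keeps cells of donor origin with a surface T cell receptor, and captured on the 10x Chromium system. The study's legend for this experiment gives a larger dose and does not call the T cells naive, which was not resolved here. The labels name PBS in both library titles without describing a treatment, and their protocol text gives the sort day as day +7 for both libraries, so the day was taken from the titles. Cells of several spleens were pooled into each library, so the mice cannot be told apart, no difference could be tested, and the intervals in brackets are 95% intervals that cover counting error only.

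Mitochondria carry their own small genome, which encodes core subunits of the respiratory chain, and all other mitochondrial proteins are made from nuclear genes and imported. Messenger RNA of mt- genes lies inside the organelle, whereas most nuclear-encoded mRNA lies in the cytoplasm, and a cell that loses cytoplasmic RNA is known to show a larger mt- share. A high mt- share is therefore a common filter for damaged cells in single-cell data, although cells that are rich in mitochondria are known to reach it too.

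The libraries held 87124828 UMIs on 7355 barcodes at day +7 and 84233811 UMIs on 8043 barcodes at day +14. The T barcodes up to 15% mt- UMIs had a median mt- share of 2.39% in each library. Another 33 T barcodes at day +7 and 113 at day +14 lay above 15%. A further 22 barcodes at day +7 and 5 at day +14 met the limits on genes and mt- share but had no T cell UMI. There were 20 barcode sequences found in both libraries, and no member was a member in both.

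The share of T barcodes above 5% was 1.87% [1.57, 2.21] at day +7 and 4.43% [3.98, 4.91] at day +14, by exact Clopper-Pearson intervals. Members were most frequent among the shallow barcodes of both libraries. At day +7 they made up 17 of 28 T barcodes with 1000 to 2000 UMIs (60.7%), 33 of 123 with 2000 to 4000 (26.8%), 48 of 2701 with 4000 to 8000 (1.78%), 25 of 2710 with 8000 to 16000 (0.923%) and 9 of 1499 above that (0.60%). At day +14 they made up 25 of 37 T barcodes with 500 to 1000 UMIs (67.6%), 91 of 143 with 1000 to 2000 (63.6%), 95 of 742 with 2000 to 4000 (12.8%), 90 of 2851 with 4000 to 8000 (3.16%), 36 of 2453 with 8000 to 16000 (1.47%) and 5 of 1492 above that (0.335%). The share was thus lower in every deeper bin from 1000 UMIs on, in both libraries. Only 3 T barcodes at day +7 had 500 to 1000 UMIs, and 0 of them were members.

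**Figure D1:**
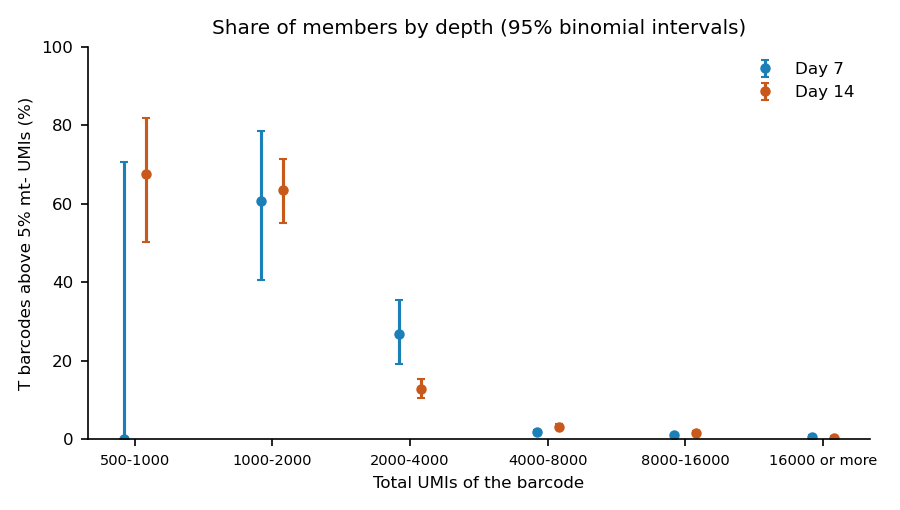
Share of T barcodes with more than 5% mt- UMIs (y axis, %) in bins of total UMIs per barcode (x axis), at day +7 (blue) and day +14 (orange); points are shares and bars exact 95% binomial intervals. The share is 60.7% and 63.6% at 1000 to 2000 UMIs and under 1% above 16000 UMIs.

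At day +7 the members had a median of 334.5 mt- UMIs (lowest 74, highest 2494) against 226 in all T barcodes at 5% or less, which is 1.48 times as many. Their median of other UMIs was 4976.5 (lowest 949, highest 41733), which is 0.550 times that of all T barcodes at 5% or less. At day +14 the median of mt- UMIs was 238.5 (lowest 48, highest 1443) against 201, or 1.19 times, and the median of other UMIs was 2740.5 (lowest 683, highest 19806), or 0.331 times. Both quantities make up the share that chose the members, so these values describe the selection.

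**Figure D2:**
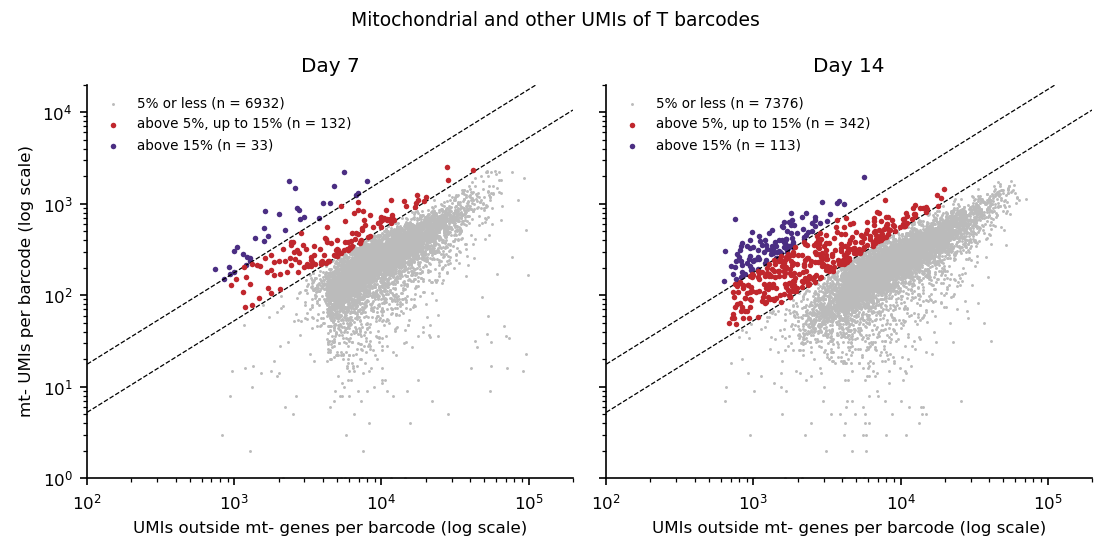
UMIs on mt- genes (y axis, log scale) against UMIs on all other genes (x axis, log scale) for each T barcode of day +7 (left) and day +14 (right). Dashed lines mark 5% and 15% mt- UMIs, and barcodes with 0 mt- UMIs are drawn at the lower edge of the y axis. Members (red, 132 and 342) lie above the main cloud of barcodes at 5% or less (grey) and mostly to its left, and barcodes above 15% (purple, 33 and 113) continue in the same direction.

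Matching put members beside barcodes of the same depth. All 132 members at day +7 and 316 of 342 at day +14 had a partner within 0.25 on the log2 scale of total UMIs, and the 26 without one had at most 1231 UMIs. The median mt- share of the matched barcodes was 2.5% at day +7 and 2.33% at day +14. At like total UMIs the members had, by their selection, 2.52 times the median mt- UMIs of their partners at day +7 (334.5 against 132.5) and 3.30 times at day +14 (252.5 against 76.5). Only total UMIs were matched, and paired members had 0.975 and 0.926 times the median other UMIs of their partners, 1.08 and 1.03 times the detected genes and 0.829 and 0.623 times the gate UMIs. Levels are given as CPM, the UMIs of a gene scaled to a fixed total of UMIs outside mt- genes. The lower limit of 5% lay in the upper tail of the mt- shares, with barcodes close to it on both sides. Just inside it, between 5% and 5.5%, lay 30 barcodes at day +7 and 56 at day +14, and just outside, between 4.5% and 5%, lay 71 and 131, with Lars2 at 609 CPM inside and 735 outside at day +7, and at 330 and 295 at day +14. At the upper limit of 15%, the 10 and 36 barcodes from 13% to 15% had Lars2 at 2341 CPM and 2327 CPM, and the 9 and 29 from 15% to 17% had it at 4100 CPM and 2849 CPM.

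The mt- genes of the members kept nearly the same proportions as in the matched barcodes, measured as the share of each gene in the mt- UMIs, which the rule on their sum does not fix. The largest difference among the 13 genes in either library was 0.43 on the log2 scale. The 7 complex I genes, subunits of the NADH dehydrogenase at the start of the respiratory chain, took 19.4% of mt- UMIs in members and 17.9% in matched barcodes at day +7, and 19.0% and 17.6% at day +14. The log2 ratios of these shares were 0.11 [0.06, 0.16] and 0.10 [0.06, 0.15]. The 3 complex IV genes, which encode the catalytic core of cytochrome c oxidase, took 47.3% against 50.6% at day +7 and 49.6% against 51.2% at day +14, with log2 ratios of -0.096 [-0.13, -0.064] and -0.045 [-0.070, -0.021]. The complex V genes mt-Atp6 and mt-Atp8 together took 23.6% against 22.6% at day +7 and 22.6% against 21.8% at day +14. The complex III gene mt-Cytb was higher in share at day +7 (9.73% against 8.86%) and lower at day +14 (8.83% against 9.37%). In all, 6 of the 13 genes had a higher share in members in both libraries, 2 a lower one, and the others differed in direction.

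Of the genes offered as markers of these cells, mt-Nd6 was rarely counted. It encodes a complex I subunit and is the only 1 of the 13 genes on the minus strand of the mitochondrial genome (mm10 chrM:13552-14070). Members had 51 mt-Nd6 UMIs at day +7 and 100 at day +14, and matched barcodes 14 and 26. As a share of mt- UMIs it was 0.0833% against 0.0662% at day +7, a log2 ratio of 0.33 [-0.54, 1.30], and 0.0988% against 0.0750% at day +14, a log2 ratio of 0.40 [-0.24, 1.08]. Both intervals span 0, so a difference from the other mt- genes was not detectable at this depth over all members. Within T barcodes, its share of mt- UMIs was 0.0662% at 5% to 7.5%, 0.105% at 7.5% to 10% and 0.131% at 10% to 15% at day +7, and 0.0893%, 0.0836% and 0.124% at day +14. Above 7.5% mt- UMIs, with 48 paired members at day +7 and 156 at day +14, the log2 ratio was 0.99 and 1.18. No interval was computed for these 2 values. The day +7 value lies within the interval over all members, and the day +14 value lies above it.

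Lars2 and Gm26917 were higher in members on a scale that leaves mt- UMIs out. Lars2 is a nuclear gene (mm10 chr9:123366927-123462666, plus strand, up to 21 exons) that encodes the mitochondrial leucyl-tRNA synthetase, the enzyme that charges the leucine tRNA of the organelle. Its level was 1240 CPM [1166, 1317] in members and 588 CPM [539, 641] in matched barcodes at day +7, and 693 CPM [649, 740] and 261 CPM [235, 290] at day +14. The log2 ratios, with 1 CPM added to each level, were 1.07 [0.92, 1.23] and 1.40 [1.23, 1.59]. Lars2 had at least 1 UMI in 97.7% of members and 93.9% of matched barcodes at day +7, and in 87.0% and 60.4% at day +14. The member was the higher of the pair in 103 of 132 pairs and in 235 of 316. In the gene lists used here Lars2 also stands with genes associated with ribosomal RNA. Whether its reads stem from its own mRNA was not tested.

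Lars2 was the most counted of the 17 mitochondrial aminoacyl-tRNA synthetase genes. The other 16 together had 201 UMIs in members and 133 in matched barcodes at day +7, a log2 ratio of 0.67 [0.35, 1.00], and 312 and 229 at day +14, a log2 ratio of 0.54 [0.28, 0.79]. In each library 12 of these 16 (75%) lay above 0 and 4 below. Most rarely counted genes did so too, since 71.9% of the 5986 genes in the same range of mean CPM lay above 0 at day +7 and 69.4% at day +14. The number of synthetase genes on the higher side was thus near the background. The sums of those 5986 genes had log2 ratios of 0.39 and 0.30. Their median log2 ratios were 0.40 and 0.30, beside 0.62 and 0.79 for the 16 synthetase genes, most of which had few UMIs. The difference in size was not tested. Cars2, the cysteinyl-tRNA synthetase, had 24 UMIs in members and 11 in matched barcodes at day +7 (log2 ratio 1.14 [0.12, 2.38]) and 53 and 26 at day +14 (1.08 [0.41, 1.85]). Fars2, the phenylalanyl-tRNA synthetase, had log2 ratios of 0.63 [-0.31, 1.67] and 0.40 [-0.12, 0.94].

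Gm26917 is annotated as a long non-coding RNA (mm10 chr17:39843013-39846341, plus strand). It is the neighbour of Gm42418 (chr17:39846958-39848788, plus strand), and AY036118 (chr17:39847113-39848035) lies inside Gm42418 on the minus strand. This stretch of chromosome 17 is known to carry sequence of the ribosomal RNA precursor, so reads of these genes may stem from ribosomal RNA, and their assignment among each other is uncertain. Gm26917 was at 581 CPM [531, 635] in members and 234 CPM [204, 268] in matched barcodes at day +7, and at 612 CPM [570, 656] and 144 CPM [124, 165] at day +14, with log2 ratios of 1.31 [1.07, 1.55] and 2.08 [1.86, 2.32]. It was unevenly spread. At least 1 UMI was found in 60.6% of members and 32.6% of matched barcodes at day +7, and in 63.3% and 30.7% at day +14, and the 10 members with the most Gm26917 held 52.8% and 28.3% of its UMIs. Gm42418 was at 42539 CPM in members and 27304 CPM in matched barcodes at day +7 and at 19952 CPM and 9608 CPM at day +14, with log2 ratios of 0.64 and 1.05. It was found in every paired member at both days, and the member was the higher of the pair in 72.0% of pairs at day +7 and 84.8% at day +14. AY036118 had log2 ratios of 0.44 [0.34, 0.54] and 0.66 [0.57, 0.76].

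Across the transcriptome the members differed from their partners mostly by small amounts that were alike in both libraries. Of 1432 nuclear genes averaging 100 CPM or more, 506 (35.3%) were higher and 660 (46.1%) lower in members in both libraries, and 266 (18.6%) differed in direction. The median log2 ratio of all these genes was -0.05 at day +7 and -0.06 at day +14. The log2 ratios of the libraries had a Spearman correlation of 0.73 and a Pearson correlation of 0.64 across genes, which are not independent replicates and share transcript length and depth. Past 2-fold, members were higher in 36 genes (2.51%) and lower in 13 (0.908%) at day +7, and higher in 13 (0.908%) and lower in 11 (0.768%) at day +14. Past 2-fold in the same direction in both libraries were 5 genes on the higher side (0.349%) and 5 on the lower side (0.349%). These counts depended on the choice of partners. With partners matched on UMIs outside the mt- genes the counts were 2 and 0. With all barcodes at 5% or less weighted to the depths of the members they were 3 and 4. All 10 genes kept their direction in both libraries under both settings. Only 1 of these 10 stayed past 2-fold in both libraries under the first setting and 3 under the second. Without matching, 3 of the 10 did.

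**Figure D3:**
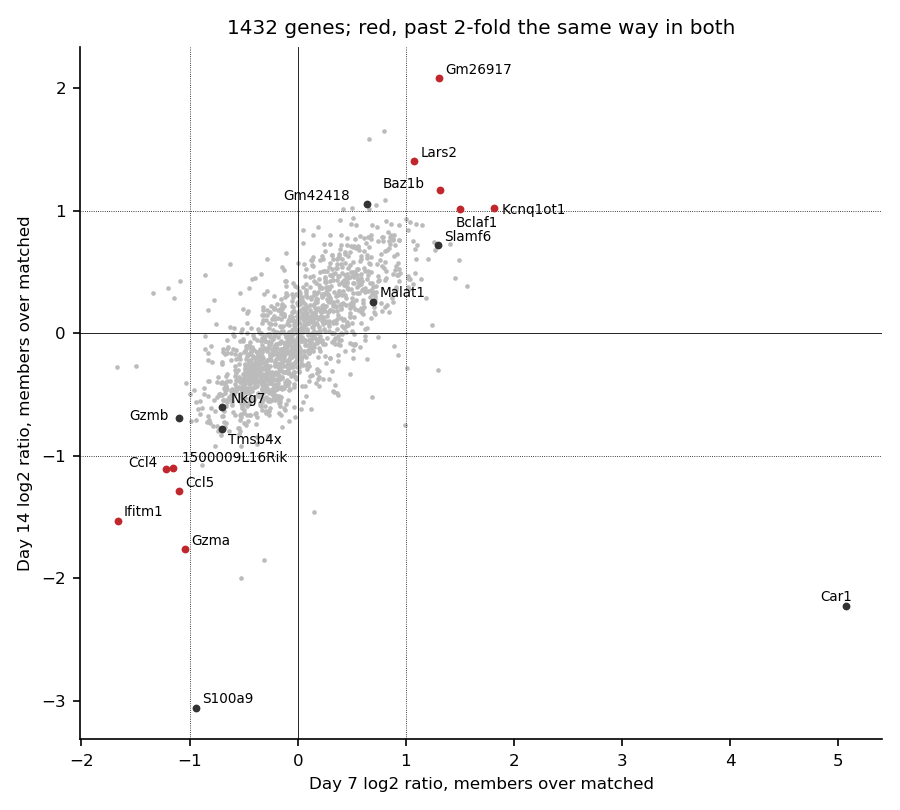
Log2 ratio of members over matched barcodes at day +7 (x axis) and day +14 (y axis) for 1432 genes; dotted lines mark 2-fold, and the 10 genes past it the same way in both libraries are red. Gm26917, Lars2, Baz1b, Bclaf1 and Kcnq1ot1 lie at the upper right, and Car1, at 5.07 and -2.22, lies far from the rest.

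The genes on the higher side were Gm26917, Lars2, Kcnq1ot1, Baz1b and Bclaf1. Kcnq1ot1 is a long RNA transcribed antisense to a potassium channel gene, known to stay in the nucleus and to act in imprinting. It was at 145 CPM in members and 40.6 CPM in matched barcodes at day +7 (log2 ratio 1.81 [1.29, 2.42]), and at 204 CPM and 99.5 CPM at day +14 (1.03 [0.73, 1.34]). Baz1b, which encodes a bromodomain protein of chromatin remodelling complexes, had 122 UMIs against 51 at day +7 (1.32 [0.85, 1.84]) and 209 against 98 at day +14 (1.17 [0.83, 1.54]). Bclaf1, which encodes a nuclear protein tied to transcription and RNA processing, had 157 UMIs against 58 (1.5 [1.07, 1.97]) and 270 against 141 (1.02 [0.73, 1.33]). The next 5 genes by the ratio nearer 0 were Ptpn7, Utrn, Atrx, Eif3b and Wapl, with log2 ratios from 0.93 to 1.14 at day +7 and from 0.89 to 0.93 at day +14. Atrx, a chromatin remodeller, and Wapl, which releases cohesin from chromatin, are among them.

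Long non-coding RNAs, most of them known to stay in the nucleus, were higher as a group. Of the 5 measured above the limit of 100 CPM, 4 were higher in both libraries and 1 was lower, with a median log2 ratio of 0.70 at day +7 and 0.54 at day +14, beside -0.05 and -0.06 for all genes. Malat1, an abundant RNA of nuclear speckles, was at 6668 CPM in members and 4106 CPM in matched barcodes at day +7 (log2 ratio 0.70 [0.64, 0.76]) and at 14505 CPM and 12108 CPM at day +14 (0.26 [0.23, 0.29]). Neat1, the scaffold of paraspeckles, had log2 ratios of 0.80 and 0.54. Xist, which coats the inactive X chromosome in female cells, had log2 ratios of 0.67 [0.52, 0.83] and 0.77 [0.67, 0.88]. Gm19585 was the exception, at -0.66 and -0.05.

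Genes of splicing and of other nuclear RNA-binding proteins were shifted the same way by less. Of 28 such genes, 23 were higher in both libraries and 4 lower, with median log2 ratios of 0.43 and 0.32. Son, a protein of nuclear speckles, had 0.26 and 0.42, and Hnrnpa2b1, an RNA-binding protein of nascent transcripts, 0.16 and 0.25. Of 12 heat shock genes listed, 5 were measured above the limit of 100 CPM. These were higher in 5 of 5 cases, with medians of 0.36 and 0.30. Among them, the chaperone gene Hsp90aa1 was at 806 CPM against 571 CPM at day +7 and 654 CPM against 399 CPM at day +14. Of the other listed genes, Hspa1a and Hspb1 had 0 UMIs in paired members of both libraries, and Hspa1b had 0 at day +7.

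Nuclear genes for subunits of the respiratory chain lay mostly on the lower side. Of all genes used, 46.1% were lower in both libraries, and of the protein-coding genes with the shortest transcripts, described below, 75.1% were. Of 34 nuclear complex I genes, 31 were lower and 3 higher in both libraries, with median log2 ratios of -0.27 and -0.32. Of 12 nuclear complex IV genes, 11 were lower and Cox7a2l was higher, with medians of -0.37 and -0.41. Ndufa4 stands in both lists. Cox8a, a small complex IV subunit, was at 1022 CPM in members and 1233 CPM in matched barcodes at day +7 and at 806 CPM and 1248 CPM at day +14. Cox4i1, another subunit, had log2 ratios of -0.24 and -0.18.

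Several further lists of nuclear-encoded mitochondrial proteins had medians below 0. Of 18 complex V genes, which build the ATP synthase, 14 were lower and 3 higher in both libraries, with medians of -0.23 and -0.31. Of 10 complex III genes, 6 were lower and 1 higher, with medians of -0.19 and -0.25. Genes of the mitochondrial ribosome were lower in 17 of 23 cases and higher in 1, with medians of -0.27 and -0.25, and genes of mitochondrial import and carriers were lower in 12 of 16 and higher in 2, with medians of -0.15 and -0.36. Mitochondrial dynamics and mitophagy genes were lower in 4 of 5 and higher in 0, with medians of -0.18 and -0.42. Of 31 genes of mitochondrial gene expression only 1 averaged 100 CPM or more, so they were compared as a sum. At day +7 they had 747 UMIs in members and 624 in matched barcodes, a log2 ratio of 0.34 [0.18, 0.49]. At day +14 the log2 ratio was 0.11 [-0.024, 0.23]. The sums of the 5986 rarely counted genes described above had 0.39 and 0.30, so the sum of the 31 genes did not stand above those.

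Short abundant cytoplasmic mRNAs also lay on the lower side, while those of cytosolic ribosomal proteins did not. Of 28 genes of the actin cytoskeleton, translation and antigen presentation, 22 were lower and 2 higher in both libraries, with medians of -0.37 and -0.22. Tmsb4x, which encodes the actin-binding thymosin β4, was at 16241 CPM in members and 26461 CPM in matched barcodes at day +7 (log2 ratio -0.70) and at 13261 CPM and 22817 CPM at day +14 (-0.78). The member was the lower of the pair in 77.3% and 85.4% of pairs. Actb, the cytoplasmic β-actin gene, was lower at day +7 (-0.22) and higher at day +14 (0.20). Of 79 cytosolic ribosomal protein genes, 29 were higher and 35 lower in both libraries, with medians of 0.01 and -0.05. Rpsa, a small-subunit protein gene, was at 8526 CPM against 6861 CPM and at 8554 CPM against 5948 CPM. Proteasome genes were lower in 22 of 29 cases and higher in 2, with medians of -0.28 and -0.19.

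**Figure D4:**
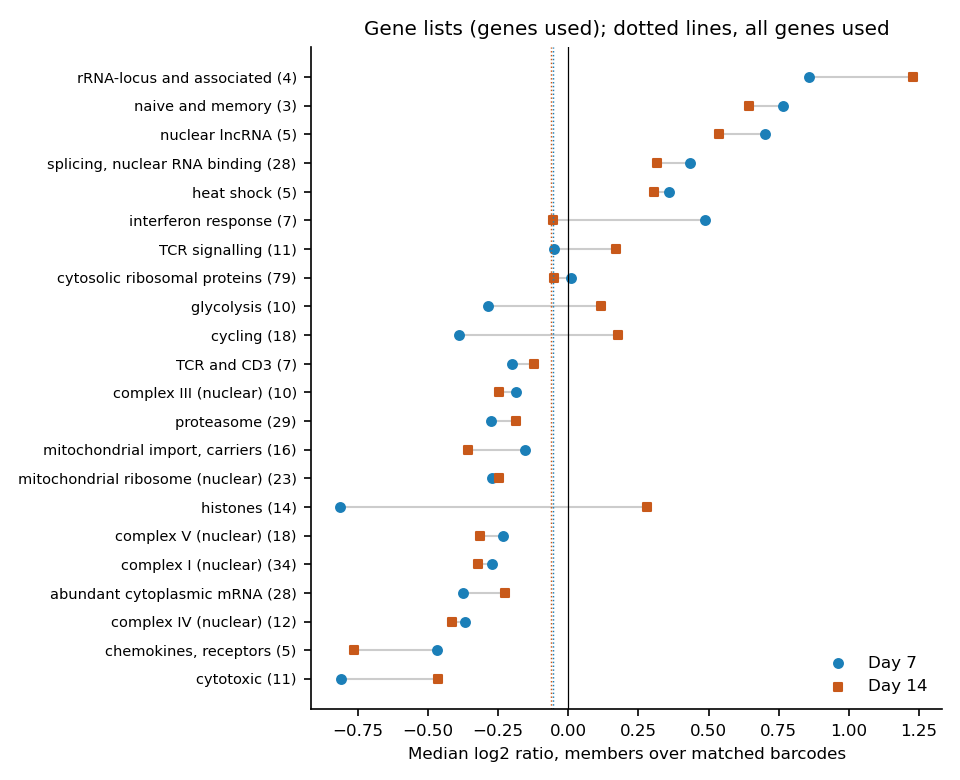
Median log2 ratio of members over matched barcodes (x axis) for the gene lists described (y axis, number of genes used in brackets) at day +7 (blue circles) and day +14 (orange squares); dotted lines mark the median of all genes used. The lists run from the rRNA-locus genes with Lars2, at 0.86 and 1.23, to the cytotoxic genes, at -0.81 and -0.47, below which only the chemokine list lies at day +14, at -0.76.

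The effector genes of the T cells were lower in members. Of 16 cytotoxic genes listed, 11 were measured above the limit of 100 CPM. All 11 were lower in both libraries, beside 46.1% of all genes used, with median log2 ratios of -0.81 at day +7 and -0.47 at day +14. Gzma, which encodes granzyme A of the lytic granules, was at 2218 CPM in members and 4580 CPM in matched barcodes at day +7 (log2 ratio -1.05 [-1.13, -0.97]), and at 98.1 CPM and 334 CPM at day +14 (-1.76 [-2.06, -1.48]). Its UMIs were held by few barcodes. At day +14 only 9.18% of members and 16.8% of matched barcodes had 1. Gzmb, the granzyme B gene, was at 656 CPM against 1405 CPM at day +7 and at 303 CPM against 490 CPM at day +14. Nkg7, a granule membrane protein gene, was at 1170 CPM against 1902 CPM and at 1870 CPM against 2837 CPM, and was detected in 81.1% of members and 86.4% of matched barcodes at day +7 and in 86.4% and 89.9% at day +14. Prf1, the perforin gene, had log2 ratios of -0.45 and -0.09, and Ifng, the interferon-γ gene, had -0.99 and -0.72.

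Of 13 chemokine and chemokine receptor genes listed, 5 were measured above the limit of 100 CPM. These were lower in both libraries in 5 of 5 cases, beside 46.1% of all genes used, with medians of -0.47 and -0.76. Ccl5, a chemokine of effector and memory T cells, was at 1757 CPM in members and 3763 CPM in matched barcodes at day +7 (log2 ratio -1.10 [-1.19, -1.01]) and at 5562 CPM and 13576 CPM at day +14 (-1.29 [-1.33, -1.25]). With all barcodes at 5% or less and no matching, the Ccl5 log2 ratios were -0.39 and -0.13, so the size of that difference depended on which barcodes the members were set beside. Ccl4 had log2 ratios of -1.22 and -1.11, and above 7.5% mt- UMIs it was higher at day +7, at 1.48. The remaining genes past 2-fold on the lower side were Ifitm1, an interferon-induced membrane protein gene, and 1500009L16Rik. Ifitm1 had 265 UMIs against 888 at day +7 (-1.66 [-1.87, -1.47]) but only 6 against 21 at day +14 (-1.53 [-3.32, -0.36]), where it was higher, at 1.27, once barcodes with myeloid or erythroid markers were left out.

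The T cell receptor and CD3 genes were somewhat lower in members than in matched barcodes. The 6 gate genes are the T cell genes of the rule, which asked for at least 1 of their UMIs in members and matched barcodes alike. Together they had a log2 ratio of -0.13 [-0.19, -0.072] at day +7, with 3 genes below 0, and of -0.26 [-0.30, -0.23] at day +14, with 6 below 0. Cd3g, a chain of the CD3 complex, had -0.21 and -0.54. The 7 genes of the receptor and CD3 complex had medians of -0.20 and -0.12, with 0 higher and 3 lower in both libraries. They summed to 5535 CPM in paired members and 6085 CPM in matched barcodes at day +7, and to 7964 CPM and 9534 CPM at day +14. In all T barcodes up to 2.5% and from 2.5% to 5%, not matched, the sums were 5958 and 6236 CPM at day +7. At day +14 they were 7660 and 8212 CPM, on either side of the members. Gate UMIs numbered a median of 29 (lowest 1, highest 177) per member at day +7 against 35 per matched barcode, and 19 (lowest 1, highest 159) per member at day +14, or 21.5 per paired member, against 34.5. Genes of T cell receptor signalling had medians of -0.05 and 0.17. Among them Ptprc, which encodes CD45, was higher in both libraries, at 0.60 [0.44, 0.77] and 0.37 [0.26, 0.48]. Lag3 (0.88 and 0.48) and Tox (0.71 and 0.28), an inhibitory receptor and a transcription factor of chronically stimulated T cells, were higher as well, and Pdcd1, which encodes PD-1, was at 0.27 and -0.04. Of the 14 genes on the list of naive and memory T cells, 3 were measured. Slamf6 (1.30 and 0.72) and Bcl2 (0.77 and 0.65) were higher, and Klf2 (-0.49 and -0.65) was lower.

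The log2 ratios differed with the length of the transcripts. The 1405 protein-coding genes were split into 5 groups of about equal size by the longest annotated transcript in GENCODE M21. In the shortest group, from 374 to 1173 bases, the median log2 ratio was -0.27 at day +7 and -0.29 at day +14, and 8.90% of genes were higher in both libraries and 75.1% lower. The medians of the next groups were -0.22 and -0.18, then -0.10 and -0.11, then 0.09 and 0.06. In the longest group, from 4435 to 23495 bases, they were 0.45 and 0.34, and 79.4% of genes were higher in both libraries and 11.0% lower. Across genes the Spearman correlation of transcript length with the log2 ratio was 0.53 and 0.51, and 0.57 and 0.55 without the cytosolic ribosomal protein genes. Among the lower genes, Tmsb4x has a longest transcript of 864 bases, Ccl5 of 668 and Gzma of 996, and among the higher ones, Baz1b has 6492, Bclaf1 5437 and Malat1 6983. Other named genes went against this order. Gm42418 (1831 bases), AY036118 (923), Cd7 (982) and Lag3 (2001) were higher in both libraries, and Map1lc3b (4138) and Ndufb7 (4435) were lower. The part of length in the list medians was not tested.

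Within the members, Lars2, Gm26917 and Malat1 were higher in each higher bin of the mt- share. Lars2 was at 424 CPM in T barcodes from 2.5% to 5% at day +7, at 815 CPM from 5% to 7.5%, at 2238 CPM from 7.5% to 10%, at 3590 CPM from 10% to 15% and at 7679 CPM above 15%. At day +14 the same bins gave 166, 478, 988, 1784 and 3424 CPM. Gm26917 ran from 90.0 CPM at 2.5% to 5% to 3242 CPM at 10% to 15% at day +7, which is 36.0 times as high, and from 108 CPM to 1684 CPM at day +14. Malat1 was 3.57 times as high in the highest bin of members as in the bin from 2.5% to 5% at day +7. Lower levels at a higher mt- share were seen for other genes, with an upturn of Tmsb4x from 10% to 15% at day +7. From 2.5% upward, Tmsb4x was at 26370, 17468, 11111, 12898 and 6668 CPM at day +7 and at 20903, 15228, 9573, 6668 and 5272 CPM at day +14. Nuclear complex IV genes summed to 10039 CPM at 2.5% to 5% and 4466 CPM at 10% to 15% at day +7, and to 9227 CPM and 3954 CPM at day +14. Cytosolic ribosomal protein genes summed to 293260 CPM at 2.5% to 5%, 302188 CPM at 5% to 7.5% and 201561 CPM at 10% to 15% at day +7, and to 292538, 287719 and 210273 CPM at day +14. These bins were not matched for depth, and their median UMIs also went down, from 6431.5 at 5% to 7.5% to 2764 at 10% to 15% at day +7 and from 4438.5 to 1830 at day +14. The part of depth in these steps was not tested.

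**Figure D5:**
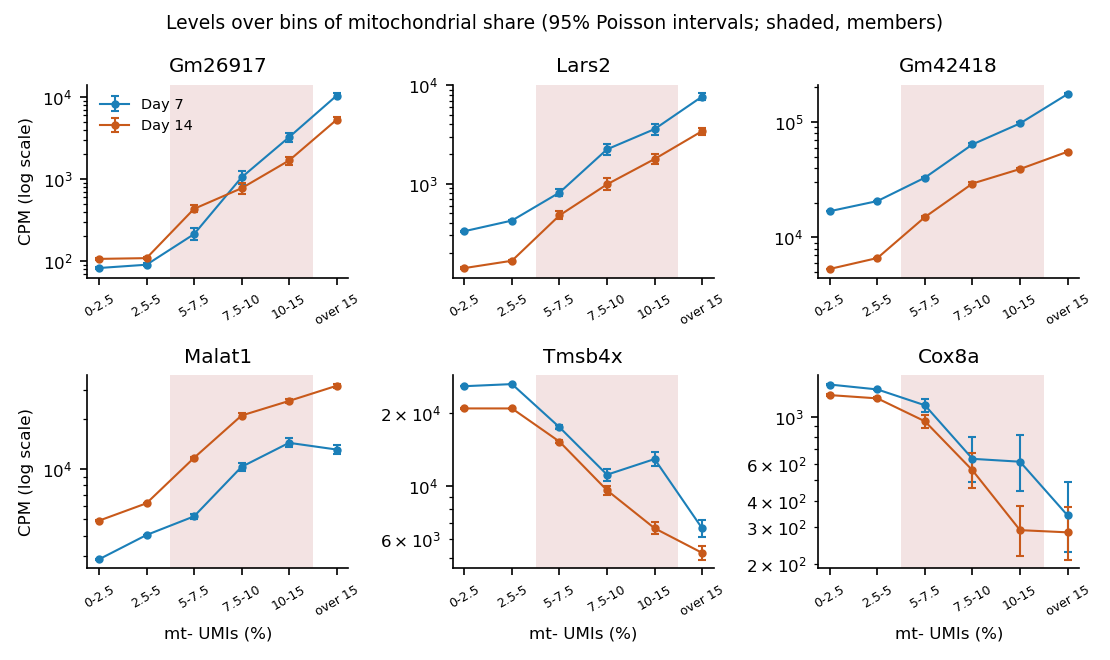
Level in CPM of UMIs outside mt- genes (y axes, log scale) of 6 genes over bins of the mt- share of T barcodes (x axes, %) at day +7 (blue) and day +14 (orange), with 95% Poisson intervals; the shaded bins hold the members. Gm26917, Lars2, Gm42418 and Malat1 are higher and Tmsb4x and Cox8a lower in the bin from 10% to 15% than in that from 2.5% to 5%.

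Most members carried CD8 transcripts. Cd8a or Cd8b1, without a Cd4 UMI, was detected in 77.3% [69.2, 84.1] of members at day +7 and 76.3% [71.4, 80.7] at day +14. The shares were 70.5% [61.9, 78.1] and 59.8% [54.2, 65.3] in matched barcodes. In all T barcodes at 5% or less, which were deeper, they were 85.2% [84.3, 86.0] and 78.2% [77.2, 79.1]. Cd4 without Cd8a or Cd8b1 was found in 8.33% of members and 6.06% of matched barcodes at day +7 and in 9.36% and 16.8% at day +14. Thinning to 1000 UMIs outside mt- genes left 131 members at day +7 and 303 at day +14. The CD8 shares were then 55.0% and 59.4% in members and 45.8% and 44.9% in matched barcodes. They were 50.8% and 53.9% in all T barcodes at 5% or less. Barcodes with no T cell UMI and with erythroid or myeloid markers had such a CD8 UMI in 8.26% of cases at day +7 and 8.11% at day +14, at median depths of 7639 and 2730.5 UMIs, against 5282 and 3009.5 UMIs in members. A UMI of Foxp3, the factor of regulatory T cells, was found in 2 of 132 and 2 of 342 members.

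Not every member was a clear T cell by its markers. Fewer than 10 gate UMIs were found in 33 of 132 members and 23 of 132 matched barcodes at day +7, and in 89 of 342 and 47 of 316 at day +14, and 10 and 5 members were admitted by 1 gate UMI. At day +7, 9 members had at least 10 UMIs of the 10 erythroid genes, 7 of them with fewer than 10 gate UMIs, against 2 matched barcodes. The erythroid list summed to 775 CPM in members and 60.9 CPM in matched barcodes at day +7, led by the carbonic anhydrase gene Car1 with 345 UMIs against 10, and to 30.1 CPM and 117 CPM at day +14, where Car2, Ermap, Klf1 and Alas2 were at 0 in paired members. Alas2 was at 0 in members at day +7 too. The myeloid list of 16 genes summed to 370 CPM in members and 487 CPM in matched barcodes at day +7 and to 317 CPM and 1205 CPM at day +14, where S100a9 had 55 UMIs against 496. The NK cell gene Ncr1 was at 0 in paired members of both libraries. Leaving out barcodes with at least 3 UMIs of the erythroid or myeloid lists gave Lars2 log2 ratios of 1.07 and 1.36 and Gm26917 log2 ratios of 1.46 and 1.80, and cytotoxic medians of -0.64 and -0.40.

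Some differences between the days were alike in members and in T barcodes at 5% or less, and others were not. Gzma was at 2218 CPM in members at day +7 and 97.1 CPM at day +14, which gives -4.50 on the log2 scale for day +14 over day +7, beside -3.89 in all T barcodes at 5% or less. Cd7, a T cell surface protein gene, went from 82.0 CPM to 1020 CPM, with a log2 ratio of 3.62 beside 3.36, and Eomes, a transcription factor gene of effector and memory CD8 cells, with 21 UMIs and 162 UMIs, or 2.25 beside 2.11. Chemokine genes had a median log2 ratio of 1.67 in members, 1.64 in matched barcodes and 0.93 in all T barcodes at 5% or less. In the same order, glycolysis genes had 0.91, 0.55 and 0.71, and early activation genes 0.66, 0.62 and -0.0016. Pentose phosphate genes had -0.43, -0.11 and 0.15, and cytotoxic genes 0.026, -0.26 and -0.24. For chemokine and early activation genes the matched barcodes thus lay near the members. The gaps between these groups of barcodes were not tested. With 1 library per day, time and library cannot be told apart.

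Genes of the pentose phosphate pathway, the route from glucose to NADPH and ribose, did not share a direction. G6pdx, the entry enzyme, had 18 UMIs in members and 24 in matched barcodes at day +7 and 28 and 21 at day +14, with log2 ratios of -0.32 [-1.31, 0.60] and 0.48 [-0.36, 1.39]. Pgd, which encodes 6-phosphogluconate dehydrogenase, had 43 and 36 at day +7 (0.33 [-0.34, 1.01]) and 62 and 47 at day +14 (0.48 [-0.08, 1.07]). Pgls, the lactonase between them, had log2 ratios of 0.05 [-0.24, 0.35] and 0.11 [-0.12, 0.33]. G6pd2 had 0 UMIs in all of these sums. Differences of these 4 genes were not detectable at this depth. Of the later, non-oxidative steps, Tkt, the transketolase gene, had 229 UMIs in members and 159 in matched barcodes at day +7 (0.60 [0.30, 0.90]) and 259 and 228 at day +14 (0.27 [0.011, 0.54]). Taldo1, the transaldolase gene, had 223 and 262 UMIs at day +7 (-0.16 [-0.42, 0.11]) and 226 and 345 at day +14 (-0.52 [-0.77, -0.28]).

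Other groups lay near the median of all genes, or rested on few genes. Median log2 ratios at day +7 and day +14 were -0.15 and -0.16 for 4 genes of the citrate cycle, 0.08 and 0.07 for 6 effector transcription factors, 0.02 and -0.03 for 10 genes of the unfolded protein response, and -0.02 and 0.03 for 3 genes of the integrated stress response. They were 0.06 and -0.32 for 5 genes of cell death, 0.49 and -0.06 for 7 interferon-response genes, and 0.49 and 0.18 for 4 inhibitory receptor genes. Markers of B and plasma cells summed to 220 CPM in members and 127 CPM in matched barcodes at day +7 and had 259 UMIs and 249 UMIs at day +14. Markers of NK cells summed to 44.0 and 55.2 CPM and to 40.9 and 56.6 CPM, and those of stroma and endothelium to 28.5 and 21.4 CPM and to 49.4 and 36.3 CPM. The part of these other cells in the gene differences was not tested.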

How the data were processed

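Spleens of each day gave 1 scRNA-seq library. The deposited counts are UMIs per gene and barcode that the authors made with Cell Ranger 6.1.2, per the labels on build mm10, and no normalization had been applied. The authors' own doublet removal was not repeated here, and no doublet caller was run. Values were computed in Python 3.11.15 with numpy 2.4.6, scipy 1.17.1 and pandas 2.3.3. Members were paired 1 to 1 with T barcodes at 5% mt- UMIs or less by the assignment with the smallest summed difference in log2 total UMIs, none over 0.25. UMIs were summed over barcodes and given as CPM of UMIs outside mt- genes, and log2 ratios carry 1 CPM added to each level. Genes with a mean under 100 CPM were left out. Intervals are exact at 95% (Poisson for levels, Clopper-Pearson for shares, conditional binomial for ratios). Calls are by size, past 2-fold, since 1 library per day allows no test. The rule for named genes took the mt- genes, Lars2, Gm26917, the 10 highest and 10 lowest genes by the ratio nearer 0 of both libraries, the 3 with the most UMIs in each list, the oxidative pentose phosphate genes and genes known to differ between the days. Neat1, Prf1, Ifng and Cox7a2l fall outside it, and they and the examples against the order of transcript length were chosen after their values were seen. Members and gene lists were chosen with earlier results of these data known. The histone list was narrowed after its first pattern had also caught MHC genes. Lengths and positions are from GENCODE M21. The steps were tested on simulated data. Other matching, denominators, filters, limits and subsets were tried.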

Additional observations from a re-analysis of the deposited data

Results flagged for a closer look

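In 5 gene lists the median log2 ratio of members over matched barcodes lay on opposite sides of 0 in the libraries, by at least 0.1 in each. The medians were 0.10 at day +7 and -0.22 at day +14 for 7 early activation genes, and -0.39 and 0.18 for 18 cell cycle genes. They were -0.29 and 0.12 for 10 glycolysis genes, 0.30 and -0.20 for 9 antioxidant genes, and -0.81 and 0.28 for 14 histone genes. With 1 library per day the difference between the days was not tested.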

How the results depend on the processing

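No paired analysis was possible because each time point has 1 library. A limit of 7.5% mt- UMIs gave shares of 0.68% and 2.15%, and a gate of at least 10 UMIs, chosen after seeing the data, 1.42% and 3.36%. Genes past 2-fold higher in both libraries, 5 as reported, numbered 2 with partners matched on UMIs outside mt- genes, 3 weighted by UMI bins, 11 unmatched, 3 per all UMIs, 3 with 10 CPM added, 2 at a mean of 300 CPM, 241 with no filter, 18 by per-barcode means, 69 at 7.5%, and 180 with few cycling UMIs, which left 2 members at day +7. Genes lower, also 5, numbered 0 when matched outside mt- genes, 3 with 10 CPM added, 26 with no filter, 32 at 7.5%, 2 without barcodes of other cells, 2 in Cd8 barcodes, 129 with few cycling UMIs and 1 at the gate of 10. Lists at least 0.2 from 0 the same way numbered 21 by per-barcode means against 13. The mt-Nd6 log2 ratio at day +14 was 1.18 at 7.5%. Cd8 shares were 55.0% and 59.4% thinned and 84.8% at day +7 at the gate of 10. The median of known time-dependent genes at day +14, -0.82, became 0.032 with no filter, 0.45 without barcodes of other cells, 0.72 with few cycling UMIs and 0.26 at the gate of 10. With few cycling UMIs, day +7 medians were -0.14 for nuclear lncRNAs and 0.14 for mitochondrial ribosomal genes, Ccl4 2.14 and Gzma 3.95. Ccl4 at day +7 was 1.48 at 7.5%, and Ifitm1 at day +14 was 1.27 without barcodes of other cells and 0.28 at the gate of 10. The cause was not tested. Unmatched, the median of all genes was -0.10 and -0.16, and with no filter 0.25 and 0.21. Shallow members limit what low genes can show.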
